A study of Mus musculus with 2 samples.

Results

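The regions described here are the 202 members, of 41561 in the deposited list, that start between 62 and 74 Mb of mouse chromosome 7 in the mm9 build. They were chosen by position from a list that was itself selected on Mll-PTD tags exceeding WT tags at least 4-fold. Every ratio and tag count below therefore describes these regions and tests nothing. Trimethylation of lysine 4 on histone H3 (H3K4me3) had been profiled by chromatin immunoprecipitation and sequencing in C57BL/6 bone marrow cells. The cells were enriched on magnetic beads for CD117 (KIT) and then for Sca1, to obtain stem and progenitor cells, so other bone marrow cells may be present. The genotypes were wild type (WT) and Mll-PTD, a heterozygous knock-in in which 1 copy of Mll carries a partial tandem duplication and the other is normal, with 1 library each. This gene, also named Kmt2a, encodes a methyltransferase for this lysine. The labels give no age or sex and do not say how many animals were pooled. With 1 library per genotype there is no replicate, and every interval below is a 95% exact (Clopper-Pearson) interval that covers counting error only. Intervals for shares of regions treat regions as independent, although many are clustered.

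The window is the mouse counterpart of the human Prader-Willi and Angelman domain. In this domain Snrpn, Ndn, Magel2, Mkrn3 and Peg12 are expressed from the paternal chromosome, under an imprinting centre at the Snrpn promoter. Ube3a, a ubiquitin ligase gene, is expressed from the maternal chromosome in neurons, where the long non-coding RNA Snhg14 runs antisense to it from the paternal one. Snhg14 hosts tandem arrays of small nucleolar RNA genes, Snord116 and Snord115, whose repeat units are copies of one another. H3K4me3 marks active and poised promoters, and at an imprinted promoter it lies on the expressed allele. In the RefSeq gene table of GRCm38.p6, a different build, some genes of the domain and its flanks stand in the order Tubgcp5, Cyfip1, Nipa2, Nipa1, Herc2, Oca2, Gabrg3, Gabra5, Atp10a, Ube3a, Snhg14, Ipw, Snrpn, Snurf, Ndn, Magel2, Mkrn3, Peg12, Chrna7, Otud7a, Klf13, Trpm1, Mtmr10, Fan1, Mcee, Apba2, Ndnl2, Tjp1 and Tarsl2. That table lists Ndnl2 under the symbol Nsmce3. It places 17 genes of the Snord116 type between Ube3a and Snurf, and 13 genes of the Mir344 microRNA family between Snrpn and Ndn. Gene coordinates in mm9 were not used here, so no region is assigned to a gene, and the imprinted label of the window was not checked against gene positions.

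Depth was 58083118 tags in Mll-PTD and, as derived from the deposited scaling, 43579218 in WT. Ratios were taken after Mll-PTD tags had been brought to the size of the WT library. Over the whole list the median region had 29.3 scaled Mll-PTD tags and 4 WT tags, so ratios of single short regions are imprecise.

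The window stood out more by its tags than by its number of regions. Its 202 regions covered 270 kb and held 27202.8 scaled Mll-PTD tags against 3913 WT tags. The ratio of the summed tags was 6.95 (6.73 to 7.19), below the 7.77 (7.74 to 7.80) of the 37651 other autosomal regions and the 8.29 (8.15 to 8.43) of the other 2837 regions on chromosome 7. Among 192 complete autosomal windows of 12 Mb, 34 held more regions, 4 held more Mll-PTD tags and 3 held more WT tags. The median window of that size held 160 regions, 9204 unscaled Mll-PTD tags and 886 WT tags, while this one held 36254 and 3913 tags. Both libraries were thus high here. In tags per kb of region, the window stood at 101 in Mll-PTD and 14.5 in WT, and the other autosomal regions at 56.7 and 7.30.

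The median ratio over all regions of the window was close to that of the rest of the list. The median ratio was 8, with quartiles of 5.63 and 12.7, when a region with no WT tag was set at its bound against 3 WT tags. The other autosomal regions had a median of 7.5, with quartiles of 5.38 and 10.8. The window's median mixed unlike groups, which are described below. It was 13.9 in the 65 regions of a dense stretch and 6.13 in the 120 regions outside 5 blocks. Of the 202 regions, 102 (50.5%) reached 8-fold, against 43.3% of the whole list. No WT tag was found in 24 regions (11.9%, 7.76% to 17.2%), against 13.5% of the list. A length of at least 3000 bases was reached by 10 regions (4.95%, 2.40% to 8.92%), against 2.56%. These 2 intervals treat the regions as independent, although many lie clustered in the blocks described below. They therefore do not test a difference from the list.

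Positions within the window were very uneven. The 1-Mb bin from 66 to 67 Mb held 86 of the 202 regions, while each of the other 11 bins held 4 to 22, with a median of 10. Over the autosomes a 1-Mb bin with any region held a median of 12, and 22 of 2414 held 86 or more. Tags followed another order. The bin from 67 to 68 Mb held only 8 regions but 12829.4 scaled Mll-PTD tags and 2175 WT tags. The bin from 71 to 72 Mb held 4159.2 and 357 tags in 22 regions. These 3 bins hold 5 blocks that are described in turn and that together take 82 regions; the other 120 regions are described last. The blocks were marked out after their positions and tags had been seen.

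**Figure D1:**
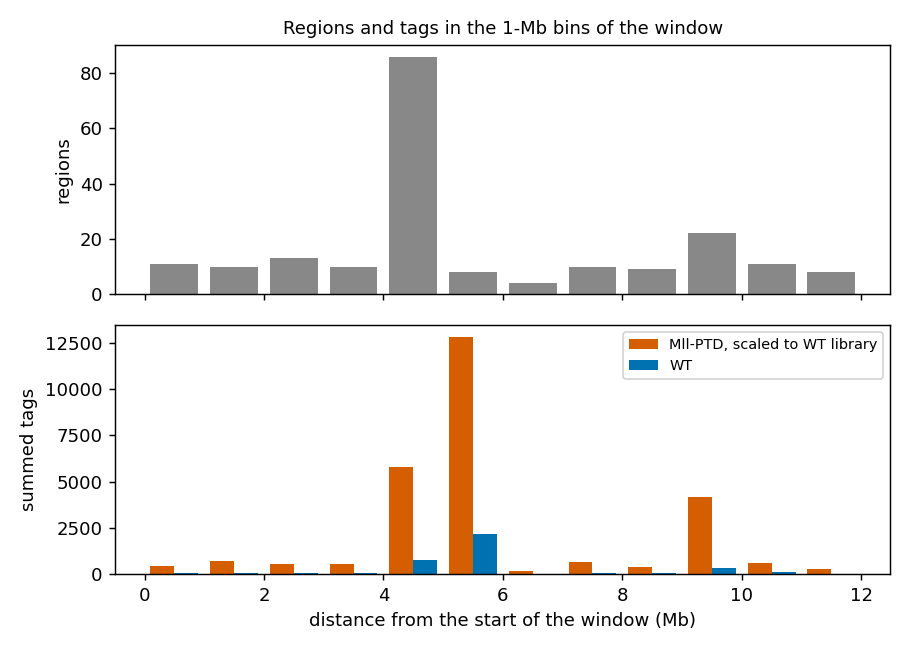
Number of regions (upper panel) and summed tags (lower panel) in each 1-Mb bin, against the distance from the start of the window in Mb. Bars in the lower panel are scaled tags of the Mll-PTD library (orange) and tags of the WT library (blue). The bin with the most regions, 86, is followed by the bin with the most tags, which has 8 regions.

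The first block was a dense stretch of 65 regions between 66681725 and 66871339, with WT tags lower than in the rest of the list. Its regions held 2927.1 scaled Mll-PTD tags and 190 WT tags, a ratio of 15.4 (13.3 to 17.9). Mll-PTD density was 47.3 tags per kb, a little under the 56.7 of the other autosomal regions. WT density was 3.07 per kb, against 7.30 there. The high ratio of the stretch therefore goes with few WT tags, not with many Mll-PTD tags. The Mll-PTD density is limited from below, because the caller required 30 tags. The median caller score was 33 in the stretch and in the whole list, near the lowest score of 30. A likeness in Mll-PTD density is thus partly set by the selection. Single regions held 0 to 9 WT tags, and 17 of the 65 held exactly 1. Mll-PTD density per region ran only from 40.1 to 64.2 scaled tags per kb. At least 8-fold was reached by 57 of the 65 (87.7%), against 43.3% of the list, and no WT tag was found in 7 (10.8%, 4.44% to 20.9%), against 13.5% of the list.

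The contrast with other autosomal regions held within each length class. Among regions over 500 and up to 1000 bases, the 30 of the dense stretch had a median of 2.66 WT tags per kb and 48.3 scaled Mll-PTD tags per kb. The 9538 other autosomal regions of that length had 6.32 and 51.4. Among regions of 500 bases, the ratio of the summed tags was 18.1 (11.9 to 28.7) in the 17 regions of the stretch and 7.70 (7.64 to 7.75) outside the window. Among those over 1000 and under 3000 bases it was 13.9 (11.1 to 17.8) in 16 regions, against 7.63 (7.57 to 7.69). Only 2 members of the stretch reached 3000 bases, with a ratio of 19.5 (12 to 33.8) against 7.22 (7.15 to 7.30). Divided by region number into 3 parts, the stretch gave ratios of 14 (10.8 to 18.5), 16.7 (13.1 to 21.5) and 15.4 (11.9 to 20.2), whose intervals overlap. Coverage was less even, since regions took up 22.2%, 43.6% and 40.9% of the 3 parts.

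The 3 longest members of the stretch show the pattern with more tags. The region from 66806963 to 66811468 held 180.8 scaled Mll-PTD tags against 8 WT tags, a ratio of 22.6 (11.3 to 53.0). The region from 66787636 to 66791127 held 150.8 against 9, a ratio of 16.8 (8.65 to 37.2). The region from 66827541 to 66830321, of 2780 bases, held 132.8 against 3, a ratio of 44.3 (14.9 to 217). These 3 regions lie in a stretch marked out after its tags had been seen, so their intervals are a description. Of the 10 highest ratios in the window among regions with a WT tag and at least the window's median of tags, 9 lay in the stretch, from 24.4 to 48.0. Of those 9, all but the 44.3 above and the 24.4 rest on a single WT tag, as does the highest, 48.0 (8.32 to 1926).

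Centres of regions in the dense stretch were spaced in multiples of one distance. A scan over distances between centres of up to 12 kb gave a best spacing of 1.87 kb. Of the 64 steps from one region to the next, 52 (81.2%) lay within 15% of that spacing from one of its multiples. The spacing was the best of a scan over these same regions, so this share is a description. The step was 1 unit in 35 cases, 2 units in 12 and 3 or more in 5. Between 1750 and 2000 bases there were 21 pairs of centres, between 2500 and 2750 bases 1 pair, between 3500 and 3750 bases 22 pairs, between 4250 and 4500 bases none and between 5500 and 5750 bases 23 pairs. The pattern thus runs over several units without losing step. Restricted to the 59 regions of up to 1500 bases, the spacing was again 1870 bases, with 50 of 58 steps (86.2%) near a multiple. The caller keeps peaks at least 1000 bases apart, which prevents shorter steps, and stitches peaks into regions. Its part in the spacing was not tested.

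**Figure D2:**
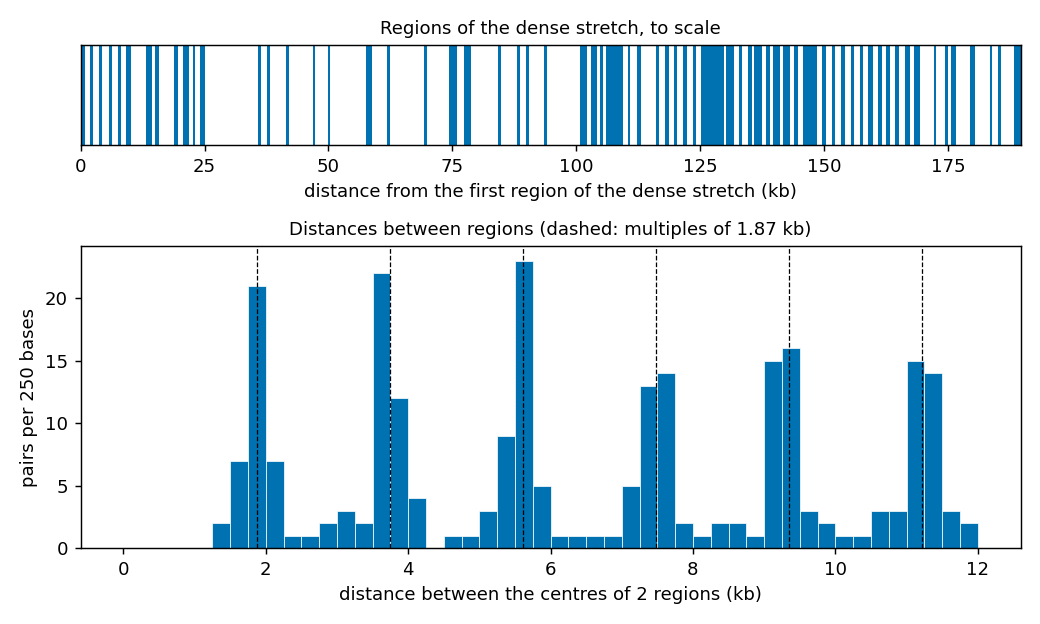
Upper panel: the 65 regions of the dense stretch drawn to scale against the distance in kb from the first. Lower panel: number of pairs of regions per 250 bases of distance between their centres, up to 12 kb, with dashed lines at multiples of 1.87 kb. Pairs gather at the dashed lines, with 21 from 1750 to 2000 bases, 22 from 3500 to 3750 and 23 from 5500 to 5750.

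The same scan was run on the other crowded runs of the list, as a description. With regions joined into runs wherever the gap was at most 10 kb, the list held 26673 runs, of which 5 had 50 or more regions. One is the larger run of the dense stretch, with 53 regions, 154 WT tags and a ratio of 16.1. The other 4 lay on chromosome 14, on unlocalised sequence of chromosome 1 and, in a pair, on chromosome 4. Their ratios were 9.36, 6.82, 6.85 and 7.11, and their WT densities 5.48, 11.6, 9.22 and 8.30 tags per kb, against 2.94 in the run on chromosome 7. Scanned for their own best spacing, these 4 runs had 29.7% to 42.1% of steps near a multiple, against 78.8% in the run on chromosome 7. The mean cosine of the distances at the best spacing, which is 1 for perfect spacing and near 0 for none, was 0.64 in the run on chromosome 7 and 0.10 to 0.12 in the other 4. Of the 667 runs with at least 5 regions in the list, 43 with WT tags had a higher ratio than the run of 53. A further 1, the fourth block below, had no WT tag and so no ratio. Among whole crowded stretches, the ratio of the summed tags was 8.67 (8.36 to 9) on chromosome 14 from 42 to 45 Mb and 9.14 (8.75 to 9.54) on chromosome 7 from 21 to 24 Mb. WT densities there were 5.82 and 5.33 tags per kb, both above the 3.07 of the dense stretch.

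The second block, of 7 regions between 66927673 and 66952207, began 56.3 kb after the dense stretch and looked unlike it. Its ratio was 4.72 (4.30 to 5.19), with 2417.5 scaled Mll-PTD tags and 512 WT tags. Both densities were high, at 123 scaled Mll-PTD tags and 26.1 WT tags per kb. The longest member, from 66927673 to 66937512, held 1333.3 against 310 tags, a ratio of 4.30 (3.81 to 4.87), close to the lowest the list admits. The next, from 66938628 to 66942340, held 492.2 against 110, a ratio of 4.47 (3.65 to 5.53). The last, from 66950774 to 66952207, had the highest ratio of the 7, 8.53 (5.94 to 12.7), with 273.1 against 32 tags. Between them, 3 regions of 500 to 1651 bases held only 42.1 to 45.4 scaled Mll-PTD tags per kb, so the block has 2 dense ends and a thin middle. The region from 66947833 to 66949659 belongs to its dense end, with 193.6 against 35 tags.

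The third block was the longest region of the whole list and its neighbour. The region from 67002138 to 67047723 was 45.6 kb long and held 12241.0 scaled Mll-PTD tags against 2059 WT tags, a ratio of 5.95 (5.68 to 6.23). Its neighbour, from 67048352 to 67050581, held 362.4 against 73, a ratio of 4.96 (3.87 to 6.44). Their tallest peaks, at caller scores of 159 and 149, were the 2 highest of the window, where the median region scored 33. Together they held 264 scaled Mll-PTD tags and 44.6 WT tags per kb. An even spread of the WT library over the genome size that the caller was set to would give 21.8 tags per kb. WT was therefore at 2.05 times the even level in this block and 1.20 times in the block of 7, against 0.141 times in the dense stretch. The other autosomal regions, also selected at 4-fold over WT, stood at 0.335 times. Among 915 other autosomal regions of at least 3000 bases, 7 had more WT tags per kb than the longest region, and 7 had more Mll-PTD tags per kb. The median of those 915 was 6.58 in WT and 52.0 in Mll-PTD.

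The fourth block was a run of 7 regions between 71218726 and 71234875 in which WT had no tag at all. Mll-PTD had 281.5 scaled tags in 5.37 kb, or 52.4 per kb, close to the 56.7 of other autosomal regions. The run was marked out because its WT tags were 0, so no bound is given for its sum. Set against 3 WT tags for each region, its members were at least 8.27-fold to at least 28.8-fold higher in Mll-PTD. The largest member, from 71229146 to 71230853, held 86.3 scaled Mll-PTD tags. The other 6 were 500 to 763 bases long and held 24.8 to 43.5. Of the 667 runs of at least 5 regions in the list, this was the only one in which every region lacked WT tags. The nearest members on either side did have WT tags: 1 at 70.6 kb before the run and 10 at 39.7 kb after it. The clonal fold, the caller's measure of tags stacked on the same positions, had a median of 0.98 in the 7 regions, was above 1 in 3 of them and reached 1.10. In the other autosomal regions its median was 0.74. The part of stacked tags in this result was not tested.

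The fifth block was the second longest region of the list, from 71610406 to 71641295. Its 30.9 kb held 3478.3 scaled Mll-PTD tags against 301 WT tags, a ratio of 11.6 (10.3 to 13.0). Mll-PTD density, at 113 per kb, was near that of the block of 7, while WT density, at 9.74 per kb, was 0.447 times the even level and nearer to that of the list. Of the 915 other long autosomal regions, 78 had a higher ratio. The tallest peak scored only 45, far below the 159 of the longest region. Its nearest members, 253 kb before and 38.2 kb after, held 7 and 5 WT tags at ratios of 5.36 and 4.66.

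**Figure D3:**
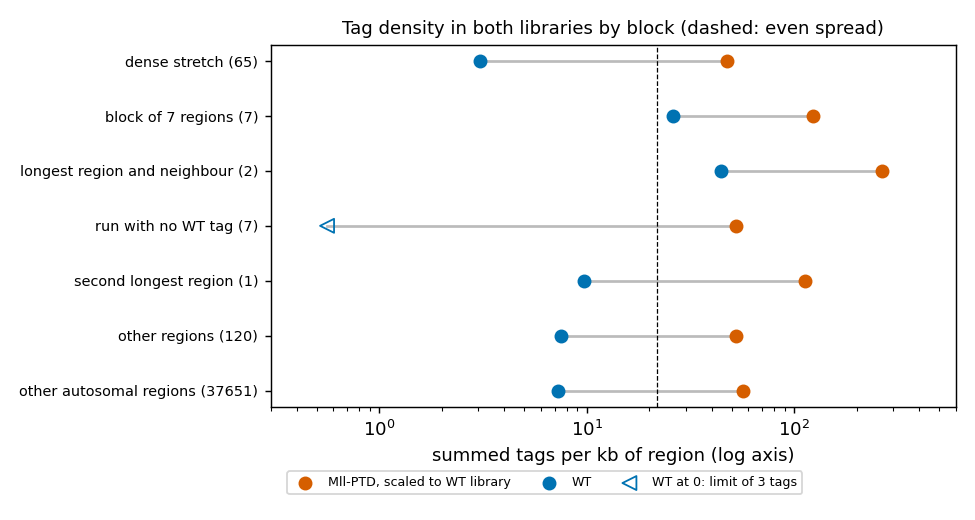
Summed tags per kb of region, on a log axis, in Mll-PTD (orange, after scaling) and WT (blue) for each block, for the other regions of the window and for the other autosomal regions, with the number of regions in brackets. The open triangle is the limit set by 3 tags where WT had none, and the dashed line is the even spread of 21.8 per kb. WT lies above the line in 2 blocks, and Mll-PTD in all groups.

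The 2 long regions dominated the window's tags. They took 57.8% of its Mll-PTD tags (57.3% to 58.3%) and 60.3% of its WT tags (58.8% to 61.8%). The dense stretch, with 32.2% of the regions, took 10.8% of the Mll-PTD tags and 4.86% of the WT tags. The ratio of the window as a whole is thus mostly that of the longest region, and its median mostly that of short regions.

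Outside the 5 blocks, the other 120 regions had a lower ratio than the other autosomal regions. The blocks were marked out after their tags had been seen, and they include the dense stretch, most of whose regions reached 8-fold. No such blocks were removed from the other autosomal regions or the list. The lower median and shares given here therefore follow in part from that choice. They held 5495.0 scaled Mll-PTD tags and 778 WT tags, a ratio of 7.06 (6.56 to 7.61), at 52.7 and 7.47 tags per kb. The other autosomal regions had a ratio of 7.77 (7.74 to 7.80), at 56.7 and 7.30 tags per kb. Their median length was 500 bases, and 36 of them (30%) reached 8-fold, fewer than the 43.3% of the list. No WT tag was found in 10 (8.33%, 4.07% to 14.8%), against 13.5% of the list. Among the 110 with a WT tag, 57 (51.8%) had a ratio from 4 up to 6, against 39.2% of the other autosomal regions with a WT tag. Their median ratio with bounds was 6.13, against 7.5 in other autosomal regions.

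Regions without a WT tag were found in 3 settings: 7 in the dense stretch, 7 in the fourth block and 10 elsewhere. Of these 24, 16 had 500 bases, and 3 had at least 1000. The longest, from 63415532 to 63418618, held 267 Mll-PTD tags, 200.3 after scaling, and was at least 66.8-fold higher against 3 WT tags. Next outside the run came the regions from 73927259 to 73928247, at least 19.3-fold higher, and from 73290051 to 73291318, at least 18.8-fold higher. A further 3 of the members with the greatest length or most tags lay apart from the blocks. One of these, from 69765495 to 69769690 held 241.6 against 22 tags, a ratio of 11.0 (7.13 to 17.8). Another, from 72407121 to 72411440 held 229.6 against 35, a ratio of 6.56 (4.61 to 9.59), and that from 65416501 to 65419927 held 154.6 against 29, a ratio of 5.33 (3.60 to 8.16). A region of 500 bases, from 63329915 to 63330415, had the tallest peak outside the blocks, with a score of 74, and a ratio of 4.08 (2.45 to 7.18).

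**Figure D4:**
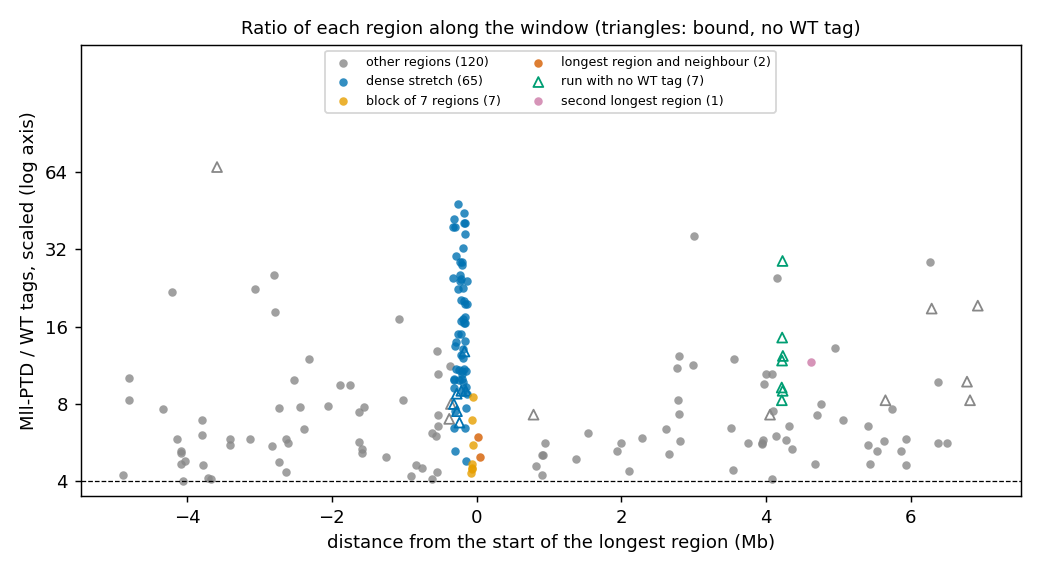
Ratio of scaled Mll-PTD tags to WT tags for each of the 202 regions, on a log axis, against the distance in Mb from the start of the longest region. Triangles are bounds against 3 WT tags for the 24 regions with none, and the dashed line is the 4-fold threshold of the list. The dense stretch reaches 48.0, and the block of 7 and the longest region lie at 4.30 to 8.53.

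The window limits cut no block. The first regions inside, from 62122714 and 62194546, had ratios of 4.22 and 8.31, and the last ones before the limit, from 61685303 and 61959176, had 10.5 and 9.27. At the far end the last regions inside, from 73820151 and 73927259, had no WT tag and bounds of 8.27 and 19.3. The next ones outside, from 74011957 and 74137321, had ratios of 6.38 and 4.59.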

How the data were processed

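The submitters' processing notes name Bowtie 0.12.7, HOMER 4.7 and mm9. Per the file headers, the authors ran findPeaks of HOMER in its histone style, with Mll-PTD tags as target and WT as control. Peaks of 500 bases were stitched into regions, with a false discovery rate of 0.001, a threshold of 30 tags, a fold over WT of 4 and a p-value of 0.0001. Regions higher in WT are therefore not in the list. As signal, the authors deposited the tags of each region: those of Mll-PTD after scaling to WT depth, and those of WT, written as 0.5 where there were none. The ratio per region and the p-value are the authors' deposited values and were used only as filters; the score and the clonal fold are deposited scores of the caller, and the region length is deposited in bases.

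Whole Mll-PTD tags were recovered by dividing by 0.750 (100% of regions within 0.1 tag), and gave the exact intervals. The interval and the spacing scan were tried on simulated counts and positions. These lacked the list's selection and the caller's stitching, so the trial checked the calculation only. Named regions are the 10 longest, the 10 with most tags, the 10 with the highest ratio, the 5 without a WT tag holding most tags, the 5 with the tallest peak, those at the limits, and runs of at least 5 regions with gaps up to 10 kb. The members, lists and rules were chosen with earlier results of these data known. Scripts ran under Python 3.11.15 with scipy 1.17.1, numpy 2.4.6, matplotlib 3.10.9 and pandas 2.3.3.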

Additional observations from a re-analysis of the deposited data

How the results depend on the processing

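Of 202 regions, 120 reached the list's median tag count and 107 an authors' fold of at least 8. With the tag limit, the share with no WT tag went from 11.9% to 6.67% and the share of Mll-PTD tags in the 2 regions with most tags from 57.8% to 62.4%. With the fold of 8, which keeps high ratios by construction, the summed ratio was 14.1, the median ratio 12.3, the share with no WT tag 22.4%, the covered length 129 kb and the share in 2 regions 44.0%. That share was 59.1% after merging regions within 1000 bases and 59.4% from 63 to 73 Mb. Without the 2 longest regions the summed ratio was 7.39. Settings chosen after seeing the data left out the dense stretch, which gave a summed ratio of 6.52, a median ratio of 6.19 and a share in 2 regions of 64.8%, or all 5 blocks, which gave 120 regions, 104 kb and a median ratio of 6.13. The limit of 1500 bases in the spacing scan was also added then. On the log2 scale the median was 2.90 with a pseudocount of 1 and 2.20 with 5. A p-value limit of 1e-05 removed none. The log2 ratios of the 31 named regions stayed within their counting intervals with a pseudocount of 0.5, and 6 left them with 5, all of which had no WT tag. No paired analysis was possible because there was only 1 library of either genotype. Depth limits what 1 region can show, at a median of 4 WT tags.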

Other observations

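A further run of at least 5 regions lay between 66459431 and 66466000, ahead of the dense stretch. Its 5 regions held 144.1 scaled Mll-PTD tags against 21 WT tags, a ratio of 6.86 (4.36 to 11.3), and none lacked WT tags. In the last 1-Mb bin, from 73 to 74 Mb, 8 regions held 282.3 against 14 tags, a ratio of 20.2 (11.9 to 37.2). Of these 8 regions, 4 had no WT tag, against 13.5% of the list. The bin was singled out with the highest ratio of the window's 1-Mb bins. Its interval and its regions without WT tags are thus a description and test no difference from the list. The clonal fold had a median of 0.92 in the 8 regions, was above 1 in 2 of them and reached 1.22. In the other autosomal regions its median was 0.74. The part of stacked tags was not tested here either. These 8 are among the regions outside the 5 blocks. In the bin before the last, from 72 to 73 Mb, 11 regions held 631.3 against 98 tags, a ratio of 6.44 (5.22 to 8.02).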
